A study of Mus musculus with 2 samples.

Results

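Effector and innate-like T cells are set apart from resting ones by a small number of transcription factors. The 9 genes described here encode such factors: Tbx21 (T-bet), Eomes, Zbtb16 (PLZF), Rora (RORα), Maf (c-Maf), Bcl6, Prdm1 (Blimp-1), Id2 and Id3. They were chosen by name among the 19837 genes of a single-cell RNA data set of mouse spleen T cells. All 9 were detected.

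The cells came from female C57/BL6N mice in 3 treatment groups of 3 mice. One group received saline and is labelled 0 h. The others received remimazolam, a short-acting benzodiazepine, at 6 mg/kg, and their spleens were taken 4 h or 8 h later. No group was given saline and sampled at 4 h or 8 h, so time after injection and the drug cannot be told apart. Each group's 3 mice share a single sample tag, which makes 1 pool a group, and all 3 pools went into 1 capture. Single mice can therefore not be compared. The labels give the sort both as CD45+CD3+CD5+ and as CD45+ cells. Its title names T cell activation and a regulatory T phenotype as the subject.

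Of 17299 putative cells, 16123 were kept, and 15170 of these had T cell receptor complex molecules (Cd3d, Cd3e or Cd3g) and passed as T cells: 4982 in the saline pool, 5095 in the 4 h pool and 5093 in the 8 h pool. Their median depth was 2547, 2528 and 2531 molecules in the saline, 4 h and 8 h pools. No cell belonged to more than 1 pool, but doublets within a pool cannot be seen and free RNA was not corrected. Every T cell was placed in 1 of 12 gates by molecules of surface receptor genes, none of which is a fate factor. Levels are given as CPM, a gene's molecules divided by all molecules of that gate and pool and scaled to 1000000. They are counted by molecule and not by length, and they are compared here between cells, not between genes.

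The gates that matter most are these. The gamma delta gate (314 cells) held cells with Trdc and without Cd4 or Cd8b1. The NK1.1 gate (178 cells) held cells with Klrb1c and without Cd8a or Cd8b1. Among cells with Cd4 and without Cd8, the Il2ra gate (360 cells) came first, then the Cxcr5 gate (116 cells), then an activated gate with at least 2 molecules of Cd44 and Itgb1 and none of the naive cell receptor genes, among them Ccr7 (237 cells), then a naive gate with at least 1 molecule of those receptor genes and at most 1 molecule of Cd44 and Itgb1 (4152 cells). Among cells with Cd8 and without Cd4, a memory gate with Il2rb or Cxcr3 (2360 cells) preceded a naive gate with a molecule of the same receptor genes (3382 cells). Il2rb and Cxcr3 are known targets of T-bet and Eomes, so the Cd8 memory gate leans on these factors through their targets.

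Markers were read against these names. The Il2ra gate held Foxp3, the factor that defines regulatory T cells, at 713 CPM. The NK1.1 gate held the T cell receptor constant gene Trac at 2026 CPM and the NK cell receptor gene Ncr1 at 19.8 CPM, from 10 molecules. Other NK receptor genes were higher there, Klre1 at 196 CPM and Klra9 at 73.4 CPM, and the 6 genes of the NK cell list, which holds the gating gene Klrb1c and Eomes, summed to 1024 CPM against 17.1 CPM in the Cd4 activated gate. The part of NK cells in the values of the NK1.1 gate was not tested. The gamma delta gate held Trac at 627 CPM beside Tcrg-C1 at 587 CPM, so the gate also took in cells with alpha beta receptor RNA.

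The fate factors fall into known pairs and groups. T-bet and Eomes are related T-box factors that drive interferon gamma and cytotoxic genes in type 1 helper, CD8 and NK cells. PLZF directs the innate-like programme of NKT cells, while RORα and c-Maf act in type 17, innate-like and cytokine-producing helper cells. Bcl6, the factor of follicular helper cells, and Blimp-1, a factor of terminally differentiated effector, regulatory and plasma cells, repress each other. Id2 and Id3 bind E proteins and keep them from DNA, with Id2 favoured in effector and innate lymphocytes.

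Most resting cells held none of the 9. No fate factor molecule was found in 3.37% of the NK1.1 gate and in 10.5% of the Cd4 activated gate, against 65.3% of the Cd4 naive gate and 51.5% of all T cells. The plot of levels by gate shows the 9 factors side by side.

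**Figure D1:**
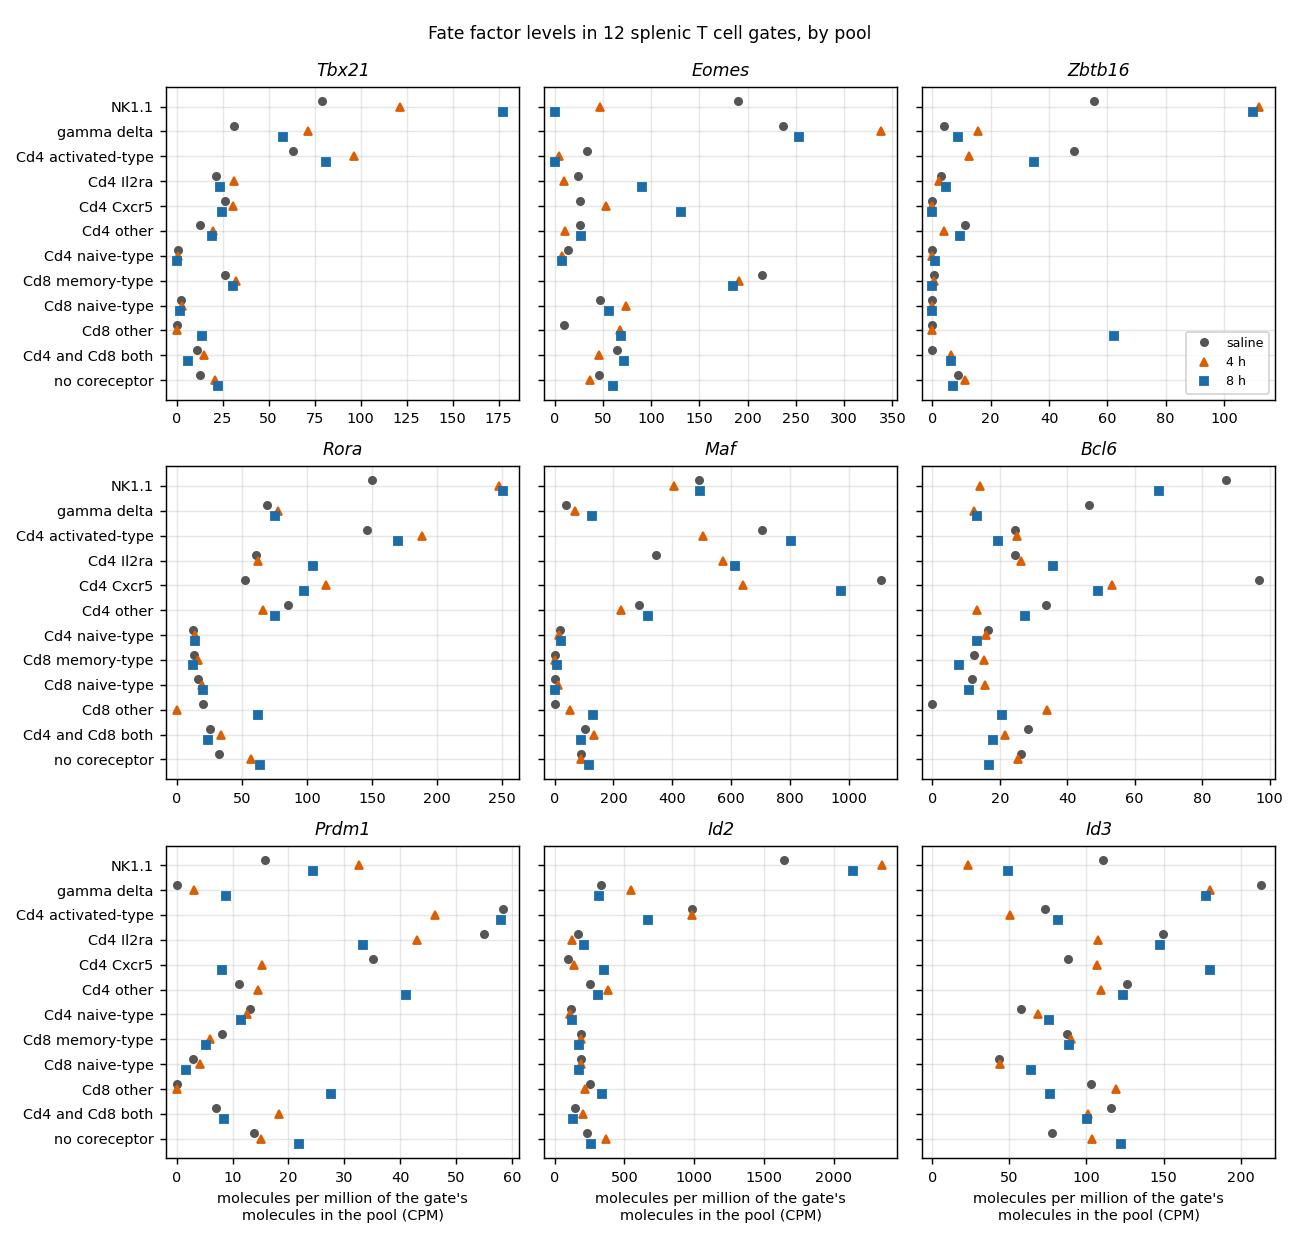
CPM of each fate factor (x axis, linear, its own range per panel) in 12 T cell gates (y axis), with 1 point for each pool: circles for saline, triangles for 4 h and squares for 8 h. Tbx21, Zbtb16, Rora and Id2 peak in the NK1.1 gate, Eomes and Id3 in the gamma delta gate, Maf and Bcl6 in the Cd4 Cxcr5 gate, and Prdm1 in the Cd4 activated gate.

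Tbx21 (chromosome 11, 97098071 to 97115331, minus strand, GRCm38) was lowest in naive cells and highest in the NK1.1 gate. It had 79.2, 121 and 177 CPM in the NK1.1 gate of the saline, 4 h and 8 h pools, from 10, 26 and 29 molecules. The Cd4 activated gate had 63.3, 96.5 and 81.3 CPM in the same pools. The Cd4 naive gate had 0.572, 0.628 and 0.276 CPM, from 5 molecules in 4152 cells. Every pool of the activated gate thus lay far above every pool of the naive gate. The ranges of the NK1.1 and activated gates overlapped, as did those of the activated and gamma delta gates, so these pools do not fix the order of neighbours.

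Eomes (chromosome 9, 118478212 to 118486132, plus strand) followed another order. It had 236, 338 and 253 CPM in the gamma delta gate and 215, 191 and 185 CPM in the Cd8 memory gate of the saline, 4 h and 8 h pools. In the Cd4 naive gate it had 14.0, 8.16 and 7.45 CPM. The NK1.1 gate was uneven, with 190 CPM in the saline pool, 46.7 CPM in the 4 h pool and no molecule in 55 cells of the 8 h pool, which allows up to 18.4 CPM at 3 molecules. The gamma delta range lay above that of every other gate. The Cd8 memory range lay above all gates below it except for the saline value of the NK1.1 gate, of which 1 cell held 41.7%. An antisense gene, Gm33460, overlaps Eomes and had 12 molecules in all T cells.

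The T-box factors are shown by the promoters of their own genes, since T-bet and Eomes share a binding sequence. Promoters were given for 7 of the 9 factors. Each run is 300 bases, 250 before and 50 after the start of the gene in RefSeq (GRCm38.p6), Tbx21 at chr11:97115282-97115581 on the minus strand and Eomes at chr9:118477939-118478238 on the plus strand. Capitals mark the E-boxes CAGCTG and CAGGTG (searched on both strands), which E proteins bind. In the Tbx21 run, CAGGTG begins 196 bases before the start and CAGCTG 37 bases after it. The T-box core TCACAC, also searched on both strands, was found in neither window, while 14.5% of 32851 mouse promoters held it.
Tbx21: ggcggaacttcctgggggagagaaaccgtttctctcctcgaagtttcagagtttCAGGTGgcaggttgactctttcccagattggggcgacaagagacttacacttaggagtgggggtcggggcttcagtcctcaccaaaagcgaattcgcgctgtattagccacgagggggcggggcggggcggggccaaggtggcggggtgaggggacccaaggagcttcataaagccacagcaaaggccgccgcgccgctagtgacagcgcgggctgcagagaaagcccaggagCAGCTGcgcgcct
Eomes: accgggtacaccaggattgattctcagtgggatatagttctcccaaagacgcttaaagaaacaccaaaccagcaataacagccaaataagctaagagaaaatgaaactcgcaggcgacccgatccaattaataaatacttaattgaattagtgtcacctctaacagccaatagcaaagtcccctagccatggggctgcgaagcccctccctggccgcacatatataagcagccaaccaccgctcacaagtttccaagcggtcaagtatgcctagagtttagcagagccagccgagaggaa

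Between gates, molecules were summed per gate and pool and tested in 1 model with the pool as a block, so each contrast rests on 3 pools that also differ in treatment. Among Cd4 cells, 6 of the 9 factors were higher in the activated gate than in the naive gate and none was lower, with 22.2% of the 6711 genes tested called in either direction. The median log2 fold change was 2.77 over the 9 factors and 0.00 over all genes. Tbx21 averaged 80.4 ± 16.6 CPM in activated cells and 0.492 ± 0.189 CPM in naive cells (SD, n = 3 pools each), a log2 fold change of 7.01 ± 0.44 (SE, edgeR adjusted p = 1.96e-19). As a plain ratio of molecules this was 167 (95% counting interval 67.7 to 535). Eomes did not share this difference: its log2 fold change was 0.12 ± 0.97 (adjusted p = 0.956), on 8 molecules in activated cells. Tbx21 was also higher than in naive cells in the Il2ra gate, by 5.38 ± 0.54 on 30 molecules (adjusted p = 4.76e-12), and in the Cxcr5 gate, by 5.44 ± 0.81 on 10 molecules (adjusted p = 4.75e-07). It was found in 16 of 360 Il2ra cells and 7 of 116 Cxcr5 cells. In the Il2ra gate, a single cell held 61.5% of its 4 h molecules and another 57.1% of its saline molecules. Eomes was called in the Il2ra and Cxcr5 gates too, by 2.04 ± 0.51 (adjusted p = 0.0013) and 2.73 ± 0.71 (adjusted p = 0.00405). However, 1 cell held 78.9% of the Il2ra and 75% of the Cxcr5 molecules of Eomes in the 8 h pool. Without the 8 h pool the adjusted p of Eomes was 0.693 in the Il2ra and 0.160 in the Cxcr5 contrast.

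Both T-box factors were higher in Cd8 memory cells. In the Cd8 memory gate against the Cd8 naive gate, 3 of 9 factors were higher and none lower, with 8.96% of genes called. Tbx21 averaged 29.8 ± 3.27 CPM in memory cells and 2.53 ± 0.565 CPM in naive cells (SD, n = 3 pools each), a log2 fold change of 3.51 ± 0.27 (adjusted p = 1.38e-15). Eomes averaged 197 ± 15.8 CPM in memory cells and 59.4 ± 13.8 CPM in naive cells, a log2 fold change of 1.73 ± 0.14 (adjusted p = 4.01e-14). DESeq2 gave Eomes a like fold change of 1.68 on the log2 scale but an adjusted p of 0.422, so its call rests on the test used. The gate uses target genes of these factors, as stated above. With the gate set on at least 2 Cd44 molecules instead, Tbx21 stood at 56.7 CPM and Eomes at 299.6 CPM in the 156 memory cells of the 3 pools. The 5471 naive cells under that setting were also higher than before, at 11.6 CPM of Tbx21 and 112 CPM of Eomes.

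Naive cells of the Cd8 and Cd4 lineages already differed. Of the 9 factors, 6 were called in the Cd8 naive gate against the Cd4 naive gate, 3 higher and 3 lower, with 22.0% of genes called. Eomes was higher by 2.62 ± 0.25 on the log2 scale (adjusted p = 1.36e-12), with 59.4 ± 13.8 CPM in Cd8 naive and 9.88 ± 3.60 CPM in Cd4 naive cells. Tbx21 was higher by 2.21 ± 0.58 (adjusted p = 0.00291), but on 23 and 5 molecules, and without the 4 h pool its adjusted p was 0.0531. Prdm1 and Maf were lower in Cd8 naive cells, by -1.99 ± 0.32 (adjusted p = 2.25e-06) and -1.83 ± 0.33 (adjusted p = 1.35e-05). Maf in Cd8 naive cells of the 4 h pool came largely from 1 cell, which held 71.9% of its molecules there.

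Cd8 memory cells with Tbx21 held Eomes more often than those without, at unequal depth. In the Cd8 memory gate, 96 of 192 cells with Tbx21, or 50% (95% interval 42.7 to 57.3), also held Eomes, against 25.3% of 2168 cells without Tbx21. Cells with Tbx21 were deeper, at a median of 3848.5 molecules against 3076.5 molecules. After every cell was thinned to 1000 molecules, 11 of 51 cells with Tbx21, or 21.6% (11.3 to 35.3), held Eomes against 12.6% of the others, and the interval holds the second share. In B cells, which should lack both genes, Eomes was found in 0.256% of 390 cells and Tbx21 in none, which allows up to 0.769% at 3 cells, at a median of 2180 molecules.

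**Figure D2:**
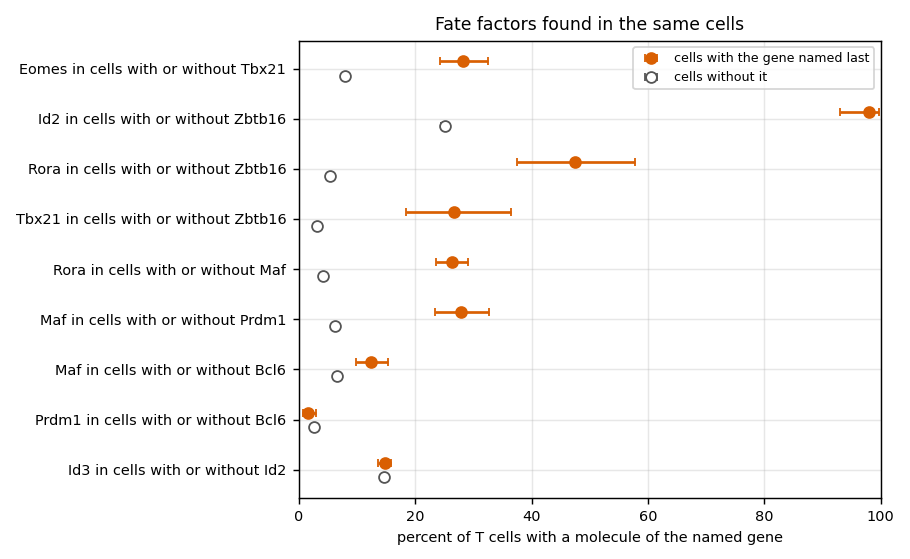
Percent of T cells with a molecule of one fate factor (x axis) among cells with (filled) and without (open) another, for 9 pairs (y axis), with exact 95% binomial intervals. Id2 was found in 98.0% of cells with Zbtb16, and Id3 in 14.7% of cells with and of cells without Id2.

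Zbtb16 (chromosome 9, 48654297 to 48836222, minus strand) was found in 0.666% of T cells and was concentrated in a few gates. The NK1.1 gate, 1.17% of T cells, held 28.2% of its molecules. In that gate it had 55.4, 112 and 110 CPM in the saline, 4 h and 8 h pools, from 7, 24 and 18 molecules in 6, 14 and 12 cells. No molecule was found in the Cd8 naive gate or in the Cd4 Cxcr5 gate. In the Cd4 naive gate there were 3 molecules, all in 1 cell of the 8 h pool. The NK1.1 range lay above the range of every other gate except that of the remaining Cd8 cells, where 1 cell of the 8 h pool held 88.9% of 9 molecules.

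Activated Cd4 cells held 22 Zbtb16 molecules in 9 of 237 cells, a ratio to the 3 molecules of naive Cd4 cells of 108 (95% counting interval 32.3 to 562, edgeR adjusted p = 1.44e-07). Of the 9 molecules of the 8 h activated cells, 77.8% came from 1 cell. Against this activated gate, the NK1.1 gate had a ratio of 3.10 (1.84 to 5.39) on 49 against 22 molecules. In that contrast 1 of 9 factors, Id2, was called, with 6.24% of genes called. Zbtb16 had a log2 fold change of 1.62 ± 0.56 (adjusted p = 0.0768), which DESeq2 put at 1.59 with an adjusted p of 0.0263 and edgeR without the saline pool at 2.22 with an adjusted p of 0.0423.

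Cells with Zbtb16 carried other factors of the effector group. Id2 was found in 99 of 101 such T cells, or 98.0%, against 25.2% of the others. Rora was found in 47.5% of them against 5.26%, and Tbx21 in 26.7% against 3.07%. The thinned shares kept the order, at 88.7% against 13.9% for Id2, 22.6% against 2.70% for Rora and 9.43% against 1.11% for Tbx21. Cells with Zbtb16 had a median of 3240 molecules, against 2533 in the others. Inside the NK1.1 gate the differences were smaller: Id2 was found in all 32 cells with Zbtb16 against 83.6% of the others, Rora in 46.9% (29.1 to 65.3) against 27.4%, and Tbx21 in 31.3% (16.1 to 50.01) against 26.7%. The Tbx21 interval holds the second share.

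Rora (chromosome 9, 68653786 to 69388246, plus strand) was raised across the antigen-experienced Cd4 gates. It had 150, 247 and 251 CPM in the NK1.1 gate and 146, 189 and 170 CPM in the Cd4 activated gate of the saline, 4 h and 8 h pools. In the Cd4 naive gate the range was 12.9 to 14.4 CPM. The ranges of the NK1.1 and activated gates overlapped, and both lay above the Cxcr5 and Il2ra gates. Against naive Cd4 cells, Rora was higher by 3.50 ± 0.21 in activated cells (adjusted p = 2.82e-20), by 2.58 ± 0.34 in Cxcr5 cells (adjusted p = 2.89e-08) and by 2.38 ± 0.22 in Il2ra cells (adjusted p = 5.81e-13), on the log2 scale. In Cd8 memory against Cd8 naive cells it did not pass the test (-0.40 ± 0.19, adjusted p = 0.202).

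Maf (chromosome 8, 115682942 to 115707794, minus strand) was high in the antigen-experienced Cd4 gates and low in the Cd8 memory and naive gates. c-Maf drives IL-21 in follicular helper cells and IL-10 in several helper types. It had 1109, 641 and 974 CPM in the Cd4 Cxcr5 gate, 706, 504 and 802 CPM in the activated gate and 345, 572 and 612 CPM in the Il2ra gate of the saline, 4 h and 8 h pools. The Cd4 naive gate had 16.6 to 21.0 CPM and the Cd8 memory gate 1.92 to 7.07 CPM, or 22.9 CPM over the pools with the memory gate set on Cd44. The 166 remaining Cd8 cells had no Maf molecule in the saline pool, 51.0 CPM in the 4 h pool and 132 CPM in the 8 h pool, from 25 molecules in 9 cells. The activated gate overlapped with the Cxcr5 gate and with the Il2ra gate, and none of the 3 overlapped with the naive gate.

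Against Cd4 naive cells, Maf was higher in Cxcr5 cells by 5.47 ± 0.22 (adjusted p = 4.82e-27), where 6 of 9 factors were called, all higher, with 13.1% of genes called. Among these, the calls of Eomes, Bcl6 and Id3 were each lost in a fit that left out 1 pool. Maf was higher by 5.04 ± 0.19 in activated cells (adjusted p = 7.30e-29) and by 4.70 ± 0.18 in Il2ra cells (adjusted p = 5.20e-29). In the Il2ra contrast 6 of 9 factors were called, all higher, with 27.9% of genes called, and the Eomes call was lost without the 8 h pool. A molecule of Maf was present in 56.0% of Cxcr5, 61.2% of activated and 33.9% of Il2ra cells, and in 2.24% of Cd4 naive cells. Maf and Rora met in the same cells: Rora was found in 267 of 1017 T cells with Maf, or 26.3% (23.6 to 29.1), against 4.06% of those without. After thinning the shares were 13.6% and 2.33%. Inside the activated gate the shares were 26.9% and 26.1%.

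Several factors were raised in the gamma delta gate when its cells were summed. Of its single cells, 30.3% held none of the 9 and 33.4% held only 1. Against the Cd8 memory gate, 5 of 9 were higher and none lower, with 8.09% of genes called. Rora averaged 74.3 ± 4.08 CPM in gamma delta and 14.1 ± 2.24 CPM in Cd8 memory cells (SD, n = 3 pools each), a log2 fold change of 2.25 ± 0.26 (adjusted p = 1.27e-09). Maf was higher by 4.09 ± 0.48 (adjusted p = 1.54e-09), though 1 cell held 65.5% of its 29 molecules in the 8 h gamma delta cells. Id2 was higher by 1.03 ± 0.16 (adjusted p = 1.13e-06) and Id3 by 0.97 ± 0.17 (adjusted p = 1.87e-05). The Zbtb16 call (4.73 ± 1.27, adjusted p = 0.00965) rests on 8 molecules against 2, a ratio of 39.7 (7.92 to 384), and was lost without the 4 h pool (adjusted p = 0.259) and without the 8 h pool (adjusted p = 0.0842). Tbx21 and Eomes did not differ beyond the test's threshold, at 0.72 ± 0.28 (adjusted p = 0.106) and 0.37 ± 0.21 (adjusted p = 0.333). With the memory gate set on Cd44, a contrast added after the data were seen, Maf and Id3 were no longer called (adjusted p = 0.0556 and 0.187) and Zbtb16 turned to -0.29 on the log2 scale.

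**Figure D3:**
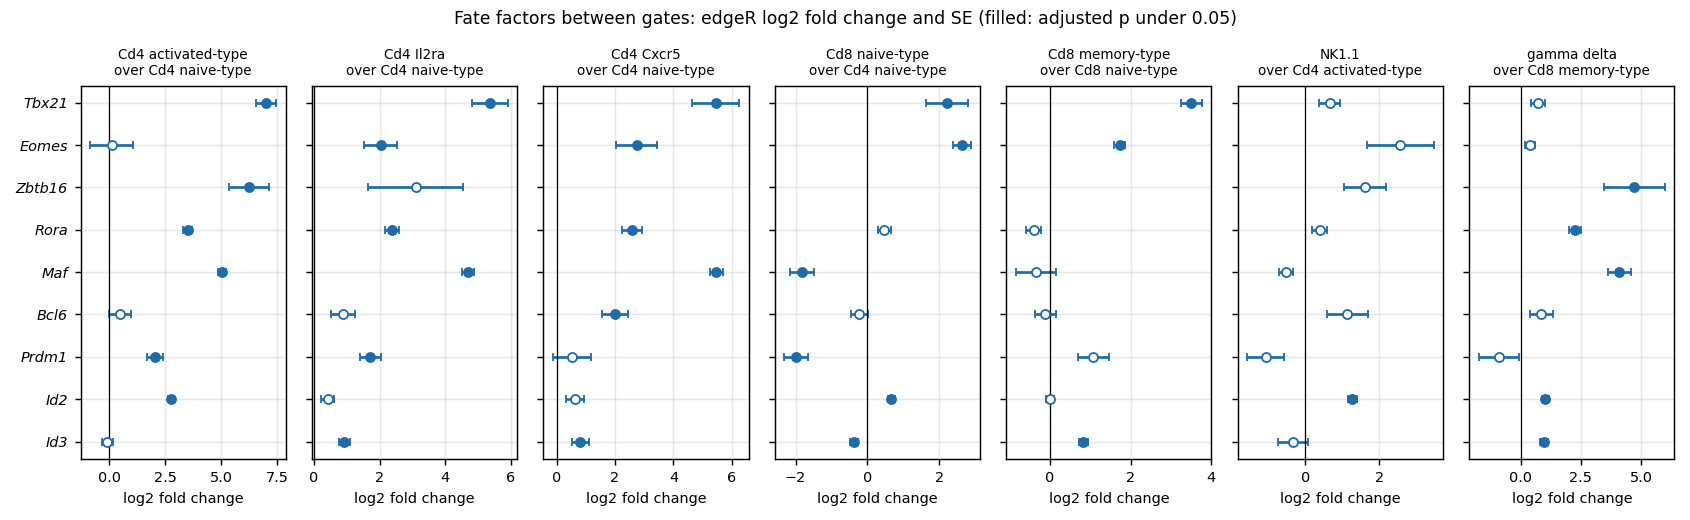
Log2 fold change (x axis) of each fate factor (y axis) in 7 contrasts between gates, the first gate named over the second, with bars of 1 SE from edgeR on 3 pools. Filled points passed an adjusted p of 0.05, and a factor with no molecule in one of the gates is left out. Tbx21 is filled in 5 panels and Bcl6 in 1.

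Bcl6 (chromosome 16, 23965052 to 23988852, minus strand) was low in every gate and highest in Cxcr5 cells. Cxcr5, the receptor that brings cells into B cell follicles, defines that gate. It had 96.8, 53.4 and 49.1 CPM there in the saline, 4 h and 8 h pools, from 11, 7 and 6 molecules, against 16.6, 16.0 and 13.3 CPM in the Cd4 naive gate. Every Cxcr5 value lay above every naive value, while the NK1.1 gate, at 87.1, 14.0 and 67.3 CPM, overlapped with both. Over naive cells, Bcl6 was higher in Cxcr5 cells by 2.0 ± 0.45 on the log2 scale (adjusted p = 0.000853). Without the saline pool it was 1.69 with an adjusted p of 0.0645. In activated and Il2ra cells it did not pass the test (0.50 ± 0.48, adjusted p = 0.530, and 0.88 ± 0.36, adjusted p = 0.0641).

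Prdm1 (chromosome 10, 44437177 to 44528501, minus strand) was highest in activated and Il2ra Cd4 cells. It had 58.4, 46.2 and 58.1 CPM in the Cd4 activated gate and 54.99, 43.0 and 33.4 CPM in the Il2ra gate of the saline, 4 h and 8 h pools, against 13.2, 12.6 and 11.6 CPM in Cd4 naive cells. Over naive cells it was higher by 2.03 ± 0.36 in activated cells (adjusted p = 7.35e-06) and by 1.72 ± 0.32 in Il2ra cells (adjusted p = 1.67e-05). In Cxcr5 cells it did not pass (0.52 ± 0.65, adjusted p = 0.719), on 7 molecules.

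Few cells held both mutual repressors, and Prdm1 itself was found in only 2.47% of T cells. Of 591 T cells with Bcl6, 9 held Prdm1, or 1.52% (0.699 to 2.87), against 2.50% of cells without Bcl6, and the interval holds the second share. In the Il2ra, Cxcr5, activated, NK1.1 and Cd8 memory gates no cell held both, at 12 to 75 cells with Bcl6 in each, so an absence of such cells was not detectable at this depth. Over all T cells, Maf was found in 27.8% of cells with Prdm1 against 6.17%, and in 12.4% of cells with Bcl6 against 6.48%, but these shares also carry the gates' own levels. In the Il2ra gate 26 of 32 cells with Prdm1, or 81.3% (63.6 to 92.8), held Maf, against 29.3% of the others. The shares were 79.2% (57.8 to 92.9) and 59.2% in the activated gate and 36.4% (10.9 to 69.2) and 37.7% in the NK1.1 gate, where the intervals hold the second share. For Bcl6 the intervals held the second share in the Il2ra gate (39.1% and 33.5%), the Cxcr5 gate (66.7% and 54.1%) and the remaining Cd4 cells (19.1% and 22.1%).

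Id2 (chromosome 12, 25093799 to 25097140, minus strand) marked the NK1.1 gate most clearly. It had 1647, 2343 and 2135 CPM there in the saline, 4 h and 8 h pools and was found in 86.5% of the cells. The activated gate followed with 984, 982 and 670 CPM, and the Cd4 naive gate had 120, 114 and 123 CPM. The NK1.1, activated and gamma delta gates did not overlap with one another. The Cd4 naive gate was the lowest, and only the saline value of the Cxcr5 gate (96.8 CPM) and the 4 h value of the Il2ra gate (122 CPM) reached its range.

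Id2 averaged 879 ± 181 CPM in activated and 119 ± 4.50 CPM in naive Cd4 cells (SD, n = 3 pools each), a log2 fold change of 2.77 ± 0.14 (adjusted p = 7.15e-24). It averaged 2041 ± 357 CPM in NK1.1 cells and 879 ± 181 CPM in activated cells, a log2 fold change of 1.27 ± 0.13 (adjusted p = 3.51e-11). Between Cd8 memory and Cd8 naive cells there was no difference larger than the spread, at 184 ± 8.40 and 184 ± 10.1 CPM. In Cd8 naive against Cd4 naive cells it was higher by 0.67 ± 0.10 (adjusted p = 5.78e-07), a call that DESeq2 did not make (adjusted p = 0.0968).

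Id3 (chromosome 4, 136143497 to 136145755, plus strand) took a different course. It had 213, 180 and 178 CPM in the gamma delta gate and 150, 108 and 148 CPM in the Il2ra gate of the saline, 4 h and 8 h pools, with 57.8, 68.7 and 75.4 CPM in Cd4 naive cells. The gamma delta gate lay above all other ranges except the 8 h value of the Cxcr5 gate, 180 CPM. Id3 was higher in Cd8 memory than in Cd8 naive cells by 0.83 ± 0.11 (adjusted p = 1.28e-07), with 88.7 ± 1.43 and 50.4 ± 11.9 CPM, and in Il2ra than in Cd4 naive cells by 0.92 ± 0.17 (adjusted p = 1.50e-05). Its call in Cxcr5 over Cd4 naive cells (0.81 ± 0.28, adjusted p = 0.0486) lay at the threshold and was lost in 6 alternatives, with adjusted p of 0.0624 to 0.437. In Cd8 naive over Cd4 naive cells Id3 was lower (-0.38 ± 0.11, adjusted p = 0.0104), a call lost without the 4 h pool (-0.27, adjusted p = 0.176), with DESeq2 (adjusted p = 0.131) and with raw molecules, not adjusted for substitution errors (-0.33, adjusted p = 0.0643). In activated against naive Cd4 cells, where Id2 rose, Id3 had a log2 fold change of -0.07 ± 0.26 (adjusted p = 0.892).

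Over all T cells Id3 was found at the same rate with and without Id2, in 14.7% of 3893 cells with Id2 and in 14.7% of 11277 cells without. Within gates the shares went both ways. In the NK1.1 gate Id3 was found in 5.19% (2.27 to 9.98) of 154 cells with Id2 and in 37.5% of 24 cells without it. Their median depth was 2640 molecules with and 2442 molecules without Id2, and the thinned shares were 0.763% (1 of 131 cells, 0.0193 to 4.18) and 14.9%. In the Cd8 memory gate Id3 was found in 16.1% (13.5 to 18.97) of cells with Id2 and in 21.8% of those without. In the Cd4 naive gate the shares were 15.4% (12.95 to 18.2) and 11.2%, and in cells with both coreceptors 28.8% (22.7 to 35.5) and 19.02%. After thinning they were 6.47% and 7.04%, 6.33% and 5.71%, and 7.61% and 9.44% in these 3 gates, each pair within the interval of the first share.

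The promoters of the Id genes are shown because E proteins, which Id proteins block, bind E-boxes. The runs follow the layout above, Id2 at chr12:25096043-25096342 on the minus strand and Id3 at chr4:136143572-136143871 on the plus strand. Both windows lie within the GENCODE spans given above for these genes, so bases before the RefSeq start are inside the GENCODE gene. In the Id2 run CAGCTG begins 196 bases before the start. Neither searched E-box lies in the Id3 run. Of all promoters of this length, 16.3% held CAGCTG and 20.2% held CAGGTG, so a match is common.
Id2: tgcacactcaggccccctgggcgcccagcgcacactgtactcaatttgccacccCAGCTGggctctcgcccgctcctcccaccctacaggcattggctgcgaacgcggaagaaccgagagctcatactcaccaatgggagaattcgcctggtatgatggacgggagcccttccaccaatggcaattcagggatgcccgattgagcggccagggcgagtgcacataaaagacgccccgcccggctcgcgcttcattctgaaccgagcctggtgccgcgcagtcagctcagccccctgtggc
Id3: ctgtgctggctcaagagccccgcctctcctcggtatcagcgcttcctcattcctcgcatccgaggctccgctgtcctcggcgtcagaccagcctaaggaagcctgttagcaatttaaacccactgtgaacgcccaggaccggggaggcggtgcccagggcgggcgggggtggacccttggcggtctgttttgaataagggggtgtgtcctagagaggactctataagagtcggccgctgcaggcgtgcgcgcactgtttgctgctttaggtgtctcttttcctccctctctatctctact

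The single-cell patterns were followed by grouping the factors over the 12 gates. Across gates, log2(CPM + 5) of Zbtb16 and Id2 had a Pearson correlation of 0.91, Maf and Rora 0.87, Maf and Bcl6 0.84, and Tbx21 and Rora 0.83. Tbx21 and Eomes had 0.29, Bcl6 and Prdm1 0.49, and Id2 and Id3 -0.27. The points are 12 gates from 1 capture that share libraries and differ in size, so these are descriptions. The genes most like each factor were Pglyrp1 (0.98), Hopx and Efhd2 for Tbx21, Tm6sf1 (0.90), Pkp4 and Cxxc5 for Eomes, and Camk2b (0.95), Bcap31 and Crot for Zbtb16. For Rora they were Cd82 (0.96), Fam129a and Atp2b1, for Maf H1f0 (0.97), Icos and Ptpn7, and for Id2 Pbxip1 (0.96), Camk2b and Lpar6. For Bcl6 they were Gtf2b (0.94), Samd10 and Lamtor1, for Prdm1 Wdr11 (0.94), Tnfrsf25 and Dgkh, and for Id3 Mpp1 (0.91), Ube2e3 and Tmem86b.

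The known target genes were read from fixed lists. Of 12 tested T-bet and Eomes targets that no gate uses, 8 were higher and 1 lower in activated than in naive Cd4 cells, with a median log2 fold change of 4.2 against 0.00 over all genes, where 22.2% of genes were called in either direction. Ifng, the type 1 cytokine, was higher by 6.93 ± 0.87 (adjusted p = 5.18e-09), the chemokine gene Ccl5 by 5.77 ± 0.40 (adjusted p = 1.20e-17) and Nkg7, a cytotoxic granule gene, by 5.19 ± 0.25 (adjusted p = 1.80e-24). In Cd8 memory against naive cells, where 8.96% of genes were called, 8 were higher and none lower, led by the granzyme gene Gzma (5.23 ± 0.69, adjusted p = 7.59e-08). The Cd8 memory gate rests on Il2rb and Cxcr3 of this same list, so that count is not independent of the gate. In NK1.1 against activated cells, where 6.24% of genes were called, 8 were higher and none lower, led by the chemokine gene Xcl1 (5.42 ± 0.60, adjusted p = 8.63e-10) and the NK receptor gene Klrd1 (4.96 ± 0.33, adjusted p = 1.57e-17).

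Of 13 genes of the innate-like programme of PLZF, 12 were higher and none lower in activated than in naive Cd4 cells, with a median log2 fold change of 1.60 and the same 22.2% of genes called. The chemokine receptor genes Ccr2 and Cxcr6 were higher by 6.64 ± 0.29 (adjusted p = 1.29e-25) and 5.90 ± 0.34 (adjusted p = 4.19e-21). In NK1.1 against activated cells, with 6.24% of genes called, 5 were higher and 1 was lower. Cxcr6 was higher by 2.36 ± 0.18 (adjusted p = 3.56e-15), and the lower one was Icos, a costimulatory receptor (-0.68 ± 0.17, adjusted p = 0.00535). The NK1.1 gate rests on Klrb1c, a gene of the PLZF list left out of the 13, so this count is not independent of the gate.

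Of 17 follicular genes, 11 were higher and 3 lower in Cxcr5 than in naive Cd4 cells, with a median log2 fold change of 1.47, where 13.1% of genes were called. The cytokine gene Il21 (7.43 ± 0.87, adjusted p = 1.35e-09), Tox2 (7.18 ± 0.49, adjusted p = 1.03e-17), a factor of follicular helper cells, and the inhibitory receptor gene Pdcd1 (5.79 ± 0.51, adjusted p = 1.54e-13) led them. Lef1, a factor of naive cells, was the lowest (-1.94 ± 0.13, adjusted p = 1.03e-17). In NK1.1 against activated cells none of the 17 was higher and 7 were lower, with a median of -0.81, where 6.24% of genes were called. The Cxcr5 gate rests on a gene of the follicular list left out of the 17, so its count is not independent of the gate.

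The remaining lists are read against 22.2% of genes called in activated and 27.9% in Il2ra over naive Cd4 cells. Of 6 tested genes of the type 17 list, 3 were higher and 1 lower in activated Cd4 cells, with a median log2 fold change of 0.76, led by Il21 (5.11 ± 1.12, adjusted p = 0.000321), while the type 17 cytokine genes Il17a and Il22 had no molecule. Of 7 genes of the Blimp-1 list, 5 were higher and 2 lower in Il2ra than in naive cells, with a median of 0.92, led by the receptor gene Tigit (6.35 ± 0.73, adjusted p = 2.44e-10). The naive gate uses Ccr7, which that list holds beside the 7. Id3, 1 of the 9 factors, is among the 7, so the count is not independent of the factors. The list was not split into genes that Blimp-1 raises and genes it lowers. Of 11 genes of the E protein and Id axis, 1 was higher and 5 were lower in activated cells, with a median of -0.28 and with Lef1 at -2.44 ± 0.11 (adjusted p = 1.46e-25). Of 24 other lineage factors, 12 were higher and 4 lower there, with a median of 0.54 and with Bhlhe40 at 5.06 ± 0.74 (adjusted p = 1.61e-07) and Bach2, a keeper of the resting state, at -2.68 ± 0.21 (adjusted p = 7.60e-16).

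Receptors that gates do not use gave a finer split, chosen after the data were seen and given without a test. Among Cd4 cells, the 124 with Ccr2 had 61.4 CPM of Zbtb16 against 1.26 CPM in the 5570 without, 307 against 28.5 CPM of Rora and 737 against 131 CPM of Maf. The 29 cells with Ccr6, a receptor of type 17 cells, had 1152 CPM of Maf, 322 CPM of Rora and no Tbx21 molecule. The 52 cells with Klrg1, a receptor of late effector cells, had 145 CPM of Prdm1 and 1102 CPM of Maf. The 136 cells with Pdcd1 had 61.2 CPM of Bcl6 against 17.8 CPM in the others.

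Between treatments each group is 1 pool, so no test was possible and the intervals below cover counting error only. A member is called past the fold at a ratio of CPM of at least 5/4 or at most 0.8. After 4 h, 4 of 9 factors were higher than in saline by that measure and none was lower, where 4.13% of 9470 genes were higher and 1.84% lower. After 8 h, 4 were higher and 1 was lower, where 3.16% of 9449 genes were higher and 2.23% lower. Between 8 h and 4 h none passed in either direction, where 1.79% of 9486 genes were higher and 3.23% lower. Both comparisons with saline share the saline pool.

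**Figure D4:**
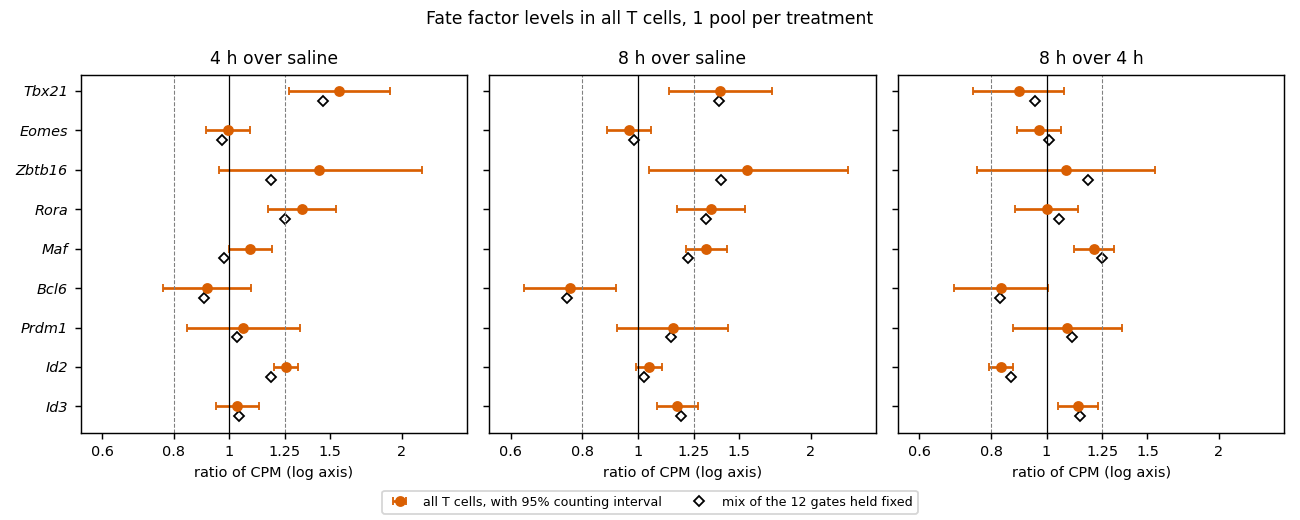
Ratio of CPM in all T cells (x axis, log scale) for each fate factor (y axis) in 3 comparisons, with 95% counting intervals (filled) and with the mix of the 12 gates held fixed (open). Dashed lines mark 5/4 and 0.8. Tbx21 and Rora lie to the right of the upper line after 4 h and after 8 h, and Bcl6 lies to the left of 0.8 after 8 h.

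Tbx21 had 11.7, 18.2 and 16.3 CPM in all T cells of the saline, 4 h and 8 h pools, from 160, 254 and 227 molecules. The ratio to saline was 1.56 (1.27 to 1.91) after 4 h and 1.39 (1.13 to 1.71) after 8 h. It was found in 2.43%, 3.91% and 3.32% of cells in the saline, 4 h and 8 h pools. In summed molecules more cells of a kind and more RNA per cell cannot be told apart, and the pools differed in their mix of gates. The NK1.1 gate took 0.863%, 1.57% and 1.08% of T cells in the saline, 4 h and 8 h pools. With the mix of gates held fixed the Tbx21 ratios were 1.45 and 1.39 after 4 h and 8 h. Within single gates with enough molecules, the Tbx21 interval held 1 in all 9 gates after 4 h. After 8 h the interval stood above 1 in 2 gates and held 1 in the other 7.

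Rora had 26.8, 35.9 and 35.9 CPM in the saline, 4 h and 8 h pools, a ratio of 1.34 (1.17 to 1.54) after 4 h and of 1.34 (1.17 to 1.54) after 8 h. With the mix fixed it was 1.252 and 1.31 after 4 h and 8 h. In single gates the interval stood above 1 in cells with neither coreceptor, at 1.76 after 4 h and 1.96 after 8 h. In the other gates with enough molecules it held 1.

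Zbtb16 had 3.15, 4.52 and 4.88 CPM in the saline, 4 h and 8 h pools, from 43, 63 and 68 molecules. The ratio was 1.44 (0.959 to 2.17) after 4 h, an interval that holds 1, and 1.55 (1.04 to 2.33) after 8 h. With the mix of gates fixed it was 1.18 and 1.40.

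Id2 had 205, 258 and 215 CPM in the saline, 4 h and 8 h pools, a ratio of 1.26 (1.19 to 1.32) after 4 h and 1.05 (0.993 to 1.1) after 8 h. With the mix fixed the 4 h ratio was 1.18, below the fold. At 4 h the interval stood above 1 in 5 gates. They were the gamma delta gate (1.64), the NK1.1 gate (1.42), the remaining Cd4 cells (1.49), the cells with both coreceptors (1.39) and those with neither (1.57). In the NK1.1 gate the 4 genes of the cycling list summed to 39.6, 345 and 471 CPM in the saline, 4 h and 8 h pools, and their part in that gate's ratios was not tested. In the large Cd4 naive, Cd8 memory and Cd8 naive gates the ratio was 0.946, 1.00 and 0.969.

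Maf had 72.8, 79.3 and 95.8 CPM in the saline, 4 h and 8 h pools. The ratio was 1.09 (0.998 to 1.19) after 4 h and 1.32 (1.21 to 1.43) after 8 h, and 0.980 and 1.22 with the mix of gates fixed. In the Il2ra gate it was 1.66 after 4 h and 1.77 after 8 h, both with intervals above 1. In the activated and Cxcr5 gates it was 0.713 and 0.578 after 4 h, with intervals below 1. Of the saline Cxcr5 molecules, 1 cell held 28.6%. The differences between gates rest on 1 pool per treatment and were not tested.

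Bcl6 had 19.7, 18.0 and 15.0 CPM in the saline, 4 h and 8 h pools, the only factor past the lower fold, at 0.762 (0.633 to 0.916) after 8 h and 0.751 with the mix fixed. Over all kept cells, with no T cell gate, the 8 h ratio was 0.861 (0.727 to 1.02), inside the fold. After 4 h the ratio was 0.915 (0.767 to 1.09). Its interval stood below 1 after 4 h in the gamma delta gate (0.267), the NK1.1 gate (0.161) and the remaining Cd4 cells (0.396), on 12, 11 and 24 saline molecules.

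Eomes, Prdm1 and Id3 stayed inside the fold. Eomes had 74.5, 74.0 and 71.9 CPM in the saline, 4 h and 8 h pools, with ratios of 0.994 (0.910 to 1.08) and 0.964 (0.883 to 1.05). After 4 h its ratio was 1.57 in Cd8 naive, 1.43 in gamma delta and 0.582 in Cd4 naive cells. Differences between gates were not tested. Prdm1 had 11.1, 11.7 and 12.7 CPM, with ratios of 1.06 (0.843 to 1.33) and 1.15 (0.920 to 1.44). Id3 had 77.0, 79.5 and 90.2 CPM, with a ratio of 1.17 (1.08 to 1.27) after 8 h, when it was 1.48 in Cd8 naive and 1.30 in Cd4 naive cells.

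The target lists were also read over all T cells. Of 17 counted T-bet and Eomes targets, 7 were past the fold upwards and 3 downwards after 4 h. After 8 h, 6 were past it upwards and 1 downwards. Of all genes, 4.13% were past it upwards and 1.84% downwards after 4 h, and 3.16% and 2.23% after 8 h. Those shares leave out gating genes and need 100 molecules in the 2 pools. The list keeps Il2rb and Cxcr3 and needs 100 molecules over the 3 pools. Ifng thus counts with 55 and 24 molecules at 4 h and in saline. The median log2 ratios of the list were 0.16 and 0.12 against 0.013 and -0.0018 over all genes. With the mix of gates fixed they were 0.077 and 0.12 against 0.011 and -0.0026. Ifng had 3.95 CPM at 4 h against 1.76 CPM in saline, a ratio of 2.25 (1.37 to 3.79), and 2.003 (1.21 to 3.41) after 8 h. Il18rap, a subunit of the IL-18 receptor, was 1.57 (1.33 to 1.87) and Ccl5 1.26 (1.21 to 1.31) times saline after 4 h. Gzma was 0.459 and Gzmb 0.426 times saline after 4 h, but 1 cell held 59.4% of the saline Gzma and 67.1% of the saline Gzmb molecules.

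Of 15 counted PLZF genes, 5 were past the fold upwards and none downwards after 4 h, and 3 and 1 after 8 h. The median log2 ratios were 0.15 and 0.13, and with the mix of gates fixed 0.11 and 0.070. The PLZF and the following counts are read against 4.13% of all genes upwards and 1.84% downwards after 4 h, and 3.16% and 2.23% after 8 h. The difference in minimum and in gating genes given above applies to these lists too. Ccr2 was 1.72 (1.48 to 1.997) times saline after 4 h and 1.48 (1.27 to 1.73) after 8 h, and with the mix of gates fixed 1.57 and 1.44. Of 17 follicular genes 1 was past the fold upwards after 4 h and 2 after 8 h, none downwards, and the most changed was P2rx7, at 1.51 (1.30 to 1.75) after 4 h. The type 17 list had 1 and 2 of 7 upwards after 4 h and 8 h and none downwards. The Blimp-1 list, which includes Id3, had none of 11 upwards and 1 downwards after 4 h and 2 and 1 after 8 h. The E protein and Id list had 1 of 12 upwards and 1 downwards after 4 h, and none and 2 after 8 h, where Egr2 had 16.0 CPM at 8 h against 23.7 CPM in saline. Of 26 other lineage factors 2 were past the fold upwards and 1 downwards after 4 h, and 3 and none after 8 h, with Bhlhe40 at 1.73 (1.21 to 2.49) after 4 h.

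Marker levels of other cells stood beside these ratios. The summed B cell markers were 326, 331 and 326 CPM in T cells of the saline, 4 h and 8 h pools, the plasma cell markers 40.8, 41.5 and 44.4 CPM, the myeloid markers 92.5, 102 and 93.7 CPM and the stress genes 121, 122 and 129 CPM. The NK cell list, which includes Eomes, was 98.4, 109 and 99.4 CPM. The NKT list, which includes Zbtb16 and the gating gene Klrb1c, was 160, 214 and 187 CPM, and the gamma delta list 189, 237 and 170 CPM. The cycling list was 197, 230 and 206 CPM, and the CD8 memory list, which includes Eomes and the gating genes Il2rb and Cxcr3, was 1067, 1220 and 1164 CPM. The part of these cells in the ratios of Tbx21, Rora, Zbtb16 and Id2 was not tested beyond the values with the mix of gates held fixed.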

How the data were processed

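Whole-transcriptome and sample-tag libraries of 1 capture were measured. The authors' deposited molecule counts per cell and gene, which are unique molecular identifiers adjusted for substitution errors per the file headers, came from the BD Rhapsody pipeline version 1.9.1 on GRCm38 with GENCODE M19. No aligner is named there. The authors' tag calls gave the pool of each cell: tag 8 saline, tag 10 4 h and tag 9 8 h. Cells called multiplets (1063, or 6.14%), undetermined (60) or under an unused tag (2) were left out, as were cells under 200 genes or with 25% or more mitochondrial molecules. No doublet caller was run. Some genes used to sort cells into gates are not reported here.

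T cells needed at least 1 Cd3 molecule and at most 1 molecule in sum of B cell (among them Ms4a1, Cd79a and Cd79b) and 1 of myeloid (Csf1r, Cd14, Csf3r) genes. T cells held 13662049, 13938771 and 13929223 molecules in the saline, 4 h and 8 h pools, so 3 molecules are about 0.215 CPM. Sums of 8 gates in 3 pools (24 sums) were fitted with edgeR 4.0.16 (glmQLFit and glmQLFTest, TMM, filterByExpr, pool as a block) in R 4.3.3, with Benjamini-Hochberg adjustment over 6711 genes, and with DESeq2 1.42.0 as an alternative. The fit was tested on simulated data. Treatment ratios have exact conditional-binomial intervals, and shares have exact Clopper-Pearson intervals. The limit that a count of 0 allows is set at 3 counts. Molecules of 1 cell are not independent, so intervals cover counting error only. Genes counted between treatments had at least 100 molecules in the 2 pools, and list genes at least 100 over all T cells. Coordinates are from GENCODE M21 and promoters from RefSeq, both on GRCm38. Other steps ran in Python 3.11.15 (scipy 1.17.1, numpy 2.4.6, pandas 2.3.3, matplotlib 3.10.9).

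The members and lists were chosen with earlier results of these data known. All 9 members are named, with the 3 genes most like each over the gates (at least 500 molecules). Of each list, names come from the 3 genes with most molecules and the up to 3 most changed in each direction among those called or past the fold. Alternatives left out each pool in turn or changed the tool, normalization, filter, cells, gate or minimum.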

Additional observations from a re-analysis of the deposited data

Results flagged for a closer look

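Some factors had ratios in different gates whose counting intervals lay on opposite sides of 1. Each gate is 1 pool per treatment, so these differences between gates were not tested, and ratios without the cell with most molecules in each pool were added after the data were seen.

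Eomes at 4 h over saline was 1.57 (1.27 to 1.95) in Cd8 naive and 0.582 (0.347 to 0.956) in Cd4 naive cells, and without the top cells 1.47 and 0.690, the second with an interval of 0.385 to 1.21 that holds 1. At 8 h over saline Eomes was 3.70 in Cd4 Il2ra and 0.861 in Cd8 memory cells, and the first interval without the top cells, 0.640 to 31.0, holds 1. At 8 h over 4 h it was 1.63 in cells with no coreceptor and 0.758 in Cd8 naive cells.

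Id2 at 8 h over saline was 1.30 (1.09 to 1.55) in the NK1.1 gate and 0.681 (0.553 to 0.839) in activated Cd4 cells, with 1.29 and 0.686 without the top cells. At 8 h over 4 h it was 1.72 in Il2ra cells and 0.715 in cells with no coreceptor. Id3 at 4 h over saline was 1.33 in cells with no coreceptor and 0.210 in the NK1.1 gate, the NK1.1 value on 5 against 14 molecules. Maf at 4 h over saline was 1.66 (1.32 to 2.09) in Il2ra cells and 0.792 (0.642 to 0.975) in the remaining Cd4 cells. At 8 h over 4 h Maf was 1.40 in the remaining Cd4 cells and 0.669 in cells with both coreceptors. Bcl6 at 8 h over 4 h was 4.81 in the NK1.1 gate, on 11 against 3 molecules, and 0.513 in Cd8 memory cells. Without the top cells the NK1.1 interval, 0.725 to 41.1, holds 1.

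Cells outside the T cell comparisons also held factors above the T cell level. Bcl6 had 61.3 CPM in 390 B cells and 38.1 CPM in 563 cells of neither kind, against 17.6 CPM in T cells. Id3 had 124 CPM in B cells against 82.3 CPM in T cells. Prdm1 had 29.6 CPM in cells of neither kind against 11.8 CPM in T cells, but 1 cell held 77.8% of its molecules in the 8 h pool.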

How the results depend on the processing

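The genes called under stricter cells numbered 1245 for Il2ra over naive Cd4 cells, and DESeq2 called 369 for Cd8 memory over naive cells. Leaving out 1 pool gave 581 to 686 genes for Cxcr5 over naive (581 without saline), 366 to 374 for Cd8 memory over naive, 200 to 324 for NK1.1 over activated and 332 to 417 for gamma delta over Cd8 memory cells. For NK1.1 over activated cells, 1 to 2 factors were called when a pool was left out, 2 by DESeq2, 3 without a filter and 3 with stricter cells. A Cd44 gate, added after the data were seen, gave 5 factors for Cd8 memory over naive and 2 for gamma delta over Cd8 memory cells. It turned Maf in Cd8 memory over naive cells to 2.40 and Zbtb16 in gamma delta over Cd8 memory cells to -0.29 on the log2 scale, and the cause was not tested. With the mix of gates fixed, 2 factors passed the fold at 4 h over saline, and 1 passed at 8 h over 4 h when each cell had equal weight. A minimum of 300 molecules left 175, 138 and 136 genes past the fold at 4 h over saline, 8 h over saline and 8 h over 4 h, and a minimum of 30 gave 1241, 1169 and 1141. Of the fold changes of single factors, 542 kept their side of the threshold, 22 lost and 19 gained the call, and 2 turned in direction. Among the 542, a change of direction was not counted where neither fit passed the threshold. Thinning moved 108 shares, since fewer molecules are read. The counts of rare factors, such as Zbtb16, limit what these pools can show.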
